A study of Mus musculus with 6 samples.

Results

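The genes described here encode the subunits, activators and assembly chaperones of the proteasome in mouse MIN6 cells. They were chosen by name, as symbols that begin with *Psm*, a letter from a to g and a digit. Of the 16640 genes in the deposited data 48 fit that pattern, and 45 were kept after *Psmb8*, *Psmb9* and *Psmb10* were set aside as inducible subunits described separately. Of the 45, 44 passed a filter on low counts and entered the tests, and *Psmb11* did not. *Psma8* and *Psme2b* were not analysed here. *Psmc3ip* fits the pattern by its symbol but is a meiotic recombination factor and not part of the proteasome, so it is counted among the 45 and described apart.

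MIN6 is a mouse insulinoma line used as a model of pancreatic β-cells. Total RNA of control cells and of *Thada*-activated cells was made into 3 libraries each and read on a BGISEQ-500 sequencer. The activated line carries a CRISPR activation system, delivered by a pair of lentiviruses: dCas9-VP64, selected by puromycin, and sgRNA-MS2-P65-HSF1 with a guide to the *Thada* promoter, selected by G418. Controls carry lentiviral dCas9 with a guide that targets no gene, and it is not stated whether they also carry VP64 and MS2-P65-HSF1. The guide and these activator parts therefore cannot be told apart in the comparison of conditions. The labels number the libraries of each group 1, 2 and 3 but do not say that these come from separate cultures, so the p-values measure only the spread between these samples. The study's reporting summary says in general that in vitro experiments were repeated independently, without naming these libraries. Totals of the estimated counts were 17272834, 17166511 and 17689611 in the control libraries and 17727004, 17385036 and 17224631 in the activated libraries. Levels are given as counts per 1000000 (CPM) on library sizes scaled by the trimmed mean of M-values. Levels of different proteasome genes are compared as deposited FPKM, which divides by a length set in the authors' processing. Beside it stand counts per kb, which divide by the longest protein-coding transcript of the gene in the GENCODE annotation. That length is the same whichever transcript the cells express. Sums of gene lists are in CPM, which does not correct for length. At this depth 1 count in a library is 0.0564 to 0.0583 per 1000000 of the unscaled total.

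The proteasome degrades proteins tagged with ubiquitin. Its barrel-shaped 20S core holds the protease sites inside stacked rings of α and β subunits, and a 19S cap with a ring of ATPases recognises, unfolds and feeds in the substrate. Dedicated chaperones assemble both parts, other activators can replace the cap, and β-cells rely on the system to clear misfolded secretory proteins.

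*Thada*, the gene that the guide targets, was at 28.1, 28.9 and 17.2 CPM in control libraries 1, 2 and 3 and at 57.3, 56.2 and 49.1 CPM in activated libraries 1, 2 and 3. All 3 activated libraries lay above all 3 control libraries, and the lowest control library was number 3. The means were 24.7 ± 6.53 CPM in control and 54.2 ± 4.43 CPM in activated libraries (SD, n = 3 each). In edgeR's quasi-likelihood test without a replicate block the log2 fold change was 1.13 (SE 0.22), and the adjusted p over all tested genes was 1. A fit with the number of the replicate as a block gave 1.15 (SE 0.1, adjusted p = 0.00041 in edgeR), and DESeq2 without the block gave an adjusted p of 0.0104. Over 17 alternatives the adjusted p ran from 1.6e-17 to 1.

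The label as a β-cell line was checked against 18 β-cell markers in the table, of which 17 passed the filter. Their summed level was 129000, 117000 and 147000 CPM in the control libraries and 123000, 121000 and 131000 CPM in the activated libraries. *Ins2*, which encodes insulin, was the most abundant of them and took 6.37, 5.65 and 10.2% of the counts of the control libraries and 6.44, 6.29 and 8.36% of those of the activated libraries. *Slc2a2*, the glucose transporter of mouse β-cells, was near 0, at no more than 0.512 CPM in any library.

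Markers of other cell types were read in the same way. The 5 α-cell markers in the table summed to 1330, 1210 and 674 CPM in control and 1290, 1280 and 812 CPM in activated libraries, nearly all of it *Ttr*. The 3 δ-cell and PP-cell markers summed to 176, 147 and 96.9 CPM in control and 166, 152 and 97 CPM in activated libraries, with *Sst* highest and *Hhex* at no more than 3 counts. Of the ductal markers, *Krt19* was at 0.527, 0.524 and 0.344 CPM in control and 2.36, 1.5 and 1.02 CPM in activated libraries, from 6 to 42 counts. It was higher in all 3 activated libraries and did not pass in edgeR, with a log2 fold change of 1.79 (SE 0.42, adjusted p = 1) without the block and 1.78 (adjusted p = 0.0548) with it. In replicates 1 and 2 alone it was among the 68 genes called in edgeR. Its part in the values of the proteasome genes was not tested. *Muc1* reached at most 2.16 CPM and its groups overlapped, and *Sox9* was at no more than 3 counts. Fibroblast, endothelial, immune and acinar markers were far below those of endocrine cells. The 4 fibroblast markers, led by *Col1a1*, summed to 3.1, 2.79 and 4.88 CPM in control and 3.21, 3.8 and 6.37 CPM in activated libraries. The 4 endothelial markers, led by *Pecam1*, summed to 0.586, 0.466 and 1.66 CPM in control and 0.563, 0.69 and 1.14 CPM in activated libraries, with *Cdh5* and *Kdr* at no more than 3 counts. The 4 immune markers, led by *Cd68*, summed to 1.17, 0.582 and 0.574 CPM in control and 1.41, 1.32 and 0.683 CPM in activated libraries, with *Adgre1* and *Cd3e* at no more than 3 counts. All 3 acinar markers in the table, *Cela2a*, *Cel* and *Amy2a5*, were at no more than 3 counts in every library, and their sum reached 0.172 CPM in the highest.

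Both libraries with the number 3 stood apart from the other 4. With the condition as a term, 8592 of 12516 tested genes (68.6%) passed an adjusted p of 0.05 between replicate 3 and replicates 1 and 2 in edgeR's quasi-likelihood test. Between replicates 2 and 1 the same test passed 0 genes (0%), with 130 at an unadjusted p under 0.05. Replicate 3 was singled out from earlier results of these data, so its calls are a description. The calls rest on a term common to control and activated cells. They cannot be told apart from whatever else those libraries had in common. The difference was not the same in both conditions for every gene. In edgeR it varied with the condition at an adjusted p under 0.05 in 871 of 12516 genes (6.96%). Of the 44 tested proteasome genes, 36 had the same direction in control and activated cells. In bulk RNA, fewer cells of a kind and less RNA per cell also cannot be told apart. Of the 17 tested β-cell markers, 3 were higher and 13 were lower in replicate 3 at an adjusted p under 0.05 in edgeR, among them *Abcc8* (log2 fold change -2.14) and *Kcnj11* (-1.44), which form the ATP-sensitive potassium channel, and *Ins2* (0.57). Markers of other cell types passed as well, as lower for *Ttr* (-0.80), *Sst* (-1.14), *Gcg* (-0.34), *Krt19* (-0.83) and *Cd68* (-1) and as higher for *Ppy* (0.70), *Irx2* (0.49) and *Col1a1* (1.28). The part of these shifts in the values of the proteasome genes was not tested.

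Every proteasome gene other than *Psmb11* was expressed in all 6 libraries. The summed level of the 45 genes was 3730, 3770 and 3610 CPM in control libraries and 3800, 3740 and 3400 CPM in activated libraries. The means, 3700 ± 82.9 and 3650 ± 215 CPM (SD, n = 3 each), differed by less than the spread of the activated libraries. *Psmb11*, the β subunit of the thymus proteasome, had 0 or 1 count in each library.

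The subunits of the 20S rings lay within a narrow range per length. Over the 14 ring subunits tested, the mean FPKM ran from 57.8 for *Psma5* to 158 for *Psmb1*, a 2.73-fold range, with a coefficient of variation of 27.9%. By this mean, within the α ring, which gates the entry to the core, *Psma2* was highest at 111 FPKM and *Psma5* lowest. In control 1 *Psma7* was above *Psma2*, at 102.51 against 100.92 FPKM. Within the β ring, which holds the protease sites, *Psmb1* was highest and *Psmb6* lowest at a mean of 78.2 FPKM, a 2.02-fold range. The order was not the same in each library. *Psmb1* was at 196.16 FPKM in control 3 and 181.42 in activated 3. It was below *Psmb4* in activated 1 and below *Psmb2* and *Psmb4* in activated 2. *Psmb5* was below *Psmb6* in activated 3. The order within the rings depends on the length used. With counts per kb of the longest annotated transcript the range was 3.57-fold, with *Psmb2* highest and *Psma2* lowest. By counts per kb *Psmb1* was the lowest of the β ring.

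By its median FPKM the 19S cap was lower than the core in every library. These medians are given in FPKM only, and cap and core were not compared with counts per kb. The median over the 14 ring subunits was 99.9, 93.9 and 98.4 FPKM in control and 103, 101 and 96.2 FPKM in activated libraries. Over the 17 subunits of the cap it was 64.3, 71.8 and 63.4 FPKM in control and 66.7, 62.9 and 55.6 FPKM in activated libraries. The ratio of cap to core was 0.643, 0.764 and 0.645 in control and 0.646, 0.622 and 0.578 in activated libraries, so the ranges of the groups overlapped. Among the ATPases, *Psmc4* was highest at a mean of 97.4 FPKM and *Psmc3* lowest at 59.2. *Psmc4* was highest in replicates 1 and 2 only. In control 3 and activated 3 it was at 64.32 and 60.96 FPKM, below *Psmc1* at 90.04 and 91.13 and also below *Psmc6*. *Psmc5* was below *Psmc3* in control 3, and *Psmc6* was below it in activated 2. Among the other cap subunits, *Psmd2*, a scaffold that binds ubiquitin-like domains, was highest at a mean of 84.4 FPKM, beside 84.2 for *Psmd8*. *Psmd1*, the other large scaffold, was lowest at 39.8. In replicate 3 *Psmd8* was above *Psmd2*, at 91.65 against 73.61 FPKM in control and 87.09 against 66.41 in activated cells. *Psmd11* was below *Psmd1* in control 1, control 2 and activated 1, and *Psmd6* was below it in control 3. With counts per kb *Psmc4* and *Psmd2* were again highest, and *Psmc6* and *Psmd11* were lowest.

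In FPKM, chaperones and alternative activators spread more widely. The chaperones ran from a mean of 8.75 FPKM for *Psmd10* to 41.1 for *Psmd5*, a 4.7-fold range, and both of these help to assemble the ATPase ring. *Psmg3*, at a mean of 8.93 FPKM, was below *Psmd10* in control 1, activated 1 and activated 3. Among activators and the inhibitor, *Psme2* was highest at a mean of 62.9 FPKM and *Psmf1*, an inhibitor of the core in vitro, lowest at 14.5, a 4.35-fold range. *Psme3*, at a mean of 59.6 FPKM, was above *Psme2* in control 1, control 2 and activated 2. With counts per kb the chaperones spread less than the rings, 2.51-fold with *Psmg3* lowest. The activators and inhibitor spread more, 4.67-fold, with *Psme3* in place of *Psme2* as the highest. The wider spread of the chaperones therefore depends on the length used. *Psme1* and *Psme2* form the interferon-responsive cap, *Psme3* forms a nuclear cap, and *Psme4* encodes the large single-chain activator.

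**Figure D1:**
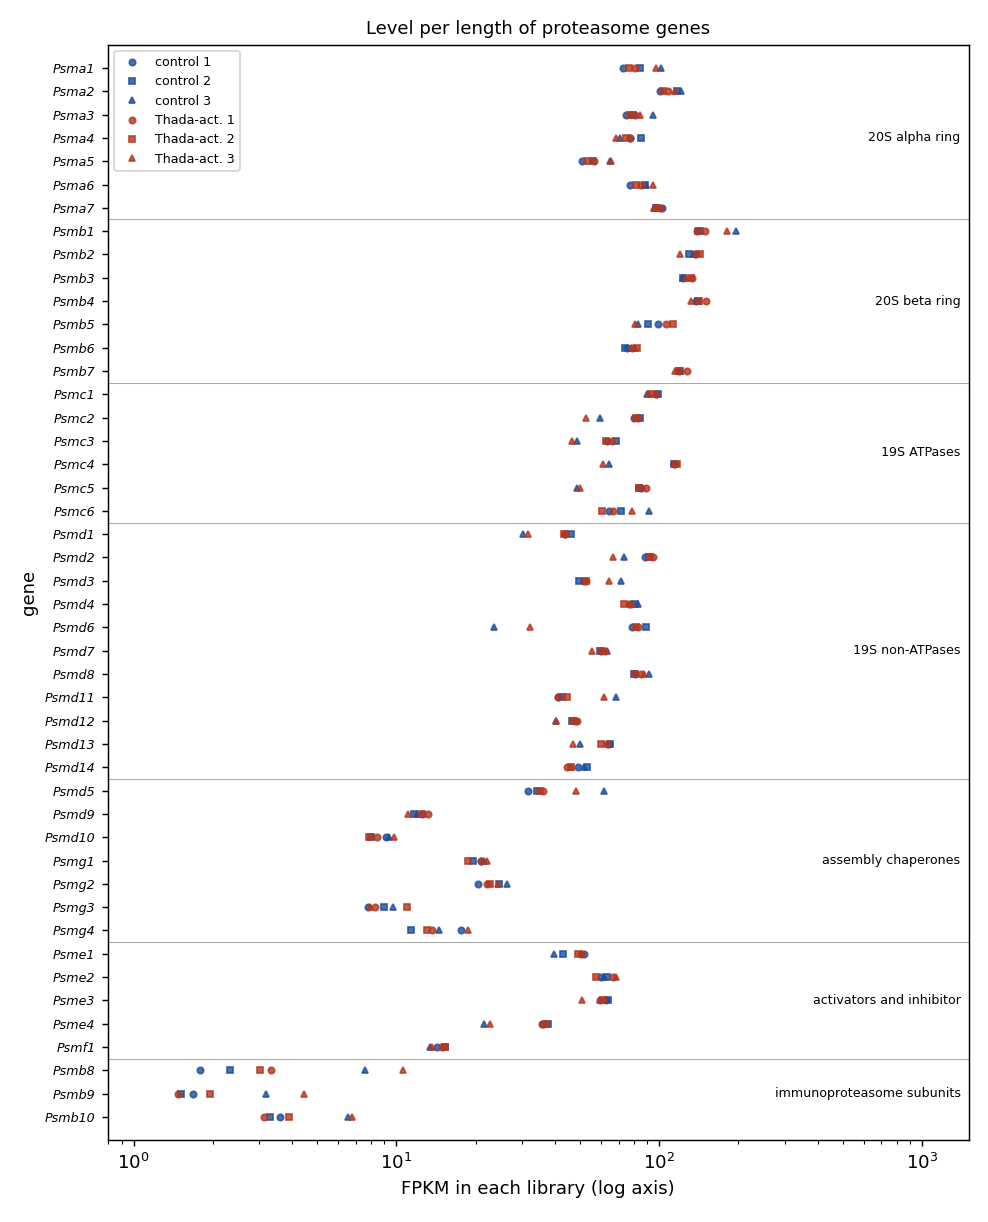
FPKM of each tested proteasome gene and of the inducible subunits in each library, on a log axis, with libraries 1, 2 and 3 as circles, squares and triangles and the conditions in blue and red. Core subunits sit to the right of most cap subunits, chaperones spread to the left, and the triangles of *Psmd6* stand far to the left of its other points.

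The first comparison asks whether proteasome genes differed between control and *Thada*-activated cells. None did by the test: edgeR's quasi-likelihood test called 0 of 44 at an adjusted p under 0.05 and a fold change over 1.5, where it called 0 (0%) of all 12516 tested genes. No proteasome gene reached an unadjusted p of 0.05 in edgeR either, against 101 (0.807%) of all tested genes, and the lowest unadjusted p among them was 0.0916. DESeq2 passed 0 of the proteasome genes, with a lowest unadjusted p of 0.0436, and limma on log FPKM passed 0. The log2 fold changes ran from -0.17 for *Psmd14* to 0.17 for *Psme1*, with a median of -0.01 beside 0.00 over all tested genes. For 36 of the 44 the 95% confidence interval lay within a 1.5-fold change in both directions, and the widest interval was that of *Psmd6*, from -1.36 to 1.44. The count of all genes at an unadjusted p under 0.05 was 43 without control 2, 46 without activated 1, 55 without activated 2 and 170 without control 3.

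When the replicate number was added as a block, the standard errors narrowed and still 0 of 44 proteasome genes passed in edgeR, or with DESeq2. Of all tested genes 28 (0.224%) then passed the adjusted p and 19 (0.152%) were also past the fold limit. The former count was 66 without replicate 1 and 366 without replicate 3. The median standard error of the proteasome genes was 0.07 with the block and 0.13 without it, and with the block all 44 intervals lay within a 1.5-fold change, the widest that of *Psmg4*, from -0.30 to 0.48. At an unadjusted p under 0.05 there were 2 proteasome genes, *Psmd14* and *Psme3*, against 1302 (10.4%) of all tested genes, so the share among proteasome genes was below that of all genes. *Psmd14* had a log2 fold change of -0.17 (adjusted p = 0.365 in edgeR) and *Psme3* of -0.14 (adjusted p = 0.476 in edgeR).

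In 3 of 44 proteasome genes the groups did not overlap, against 5.4% of all tested genes, a share close to the background. *Psmd14*, the cap enzyme that removes ubiquitin from substrates, was at 68.6, 73 and 72.1 CPM in control and 61.7, 63.9 and 63.9 CPM in activated libraries. Its activated libraries were the lower ones, with means of 71.2 ± 2.3 and 63.2 ± 1.32 CPM (SD, n = 3 each). *Psmd4*, a ubiquitin receptor of the cap, was at 92.8, 94.5 and 99.2 CPM in control and 90.2, 86.9 and 92.8 CPM in activated libraries. Its control 1 and activated 3 were level to the digits shown. *Psmb3*, a structural β subunit, was at 71.6, 69.4 and 71 CPM in control and 76, 75.6 and 74.3 CPM in activated libraries, so its activated libraries were the higher ones. The log2 fold changes were -0.17 (SE 0.09), -0.09 (SE 0.09) and 0.09 (SE 0.08) in that order, and none passed. With 3 libraries against 3 an exact permutation test cannot go below p = 0.1.

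By subcomplex the estimates stayed small in both directions. In the α ring they ran from -0.08 for *Psma4* to 0.04 for *Psma6*, with 2 above and 5 below 0. In the β ring they ran from -0.02 for *Psmb1* to 0.14 for *Psmb5*, with 6 above and 1 below 0. The ATPases ran from -0.15 for *Psmc6* to 0.03 for *Psmc5*, and the other cap subunits from -0.17 for *Psmd14* to 0.04 for *Psmd6*, so that 14 of 17 cap estimates lay below 0. Since none of these estimates passed, the signs are a description. The chaperones ran from -0.10 for *Psmd5* to 0.09 for *Psmg4*, and activators and inhibitor from -0.14 for *Psme3* to 0.17 for *Psme1*. *Psme1* was at 42.7, 34.6 and 32.8 CPM in control and 41.1, 40.3 and 42.3 CPM in activated libraries. Control 1 of *Psme1* was above every activated library, so the groups overlapped.

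The 3 proteolytic subunits of the core did not pass the test between conditions. *Psmb5*, the chymotrypsin-like subunit, was at 71.4, 63.6 and 59.6 CPM in control and 75.5, 80.5 and 58.4 CPM in activated libraries. Its activated 1 and 2 were above every control library, and activated 3 was the lowest of the 6. *Psmb6*, the caspase-like subunit, was at 66.8, 64.3 and 69.3 CPM in control and 68.9, 72.2 and 72 CPM in activated libraries. *Psmb7*, the trypsin-like subunit, was at 97.3, 94.8 and 97 CPM in control and 103, 96.8 and 94 CPM in activated libraries. For both, the groups overlapped, and the log2 fold changes were 0.09 and 0.02.

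Without replicate 3, in libraries 1 and 2 of each condition alone, 1 of 44 proteasome genes passed in edgeR, against 426 of 12480 tested genes (3.41%). That gene was *Psmb5*, with a log2 fold change of 0.21 (SE 0.06, adjusted p = 0.0444 in edgeR) and higher in both pairs. In the same 4 libraries with the replicate block 0 proteasome genes passed. *Psmb5* has a pseudogene in the annotation, *Psmb5-ps*, and how reads were shared between them is not known. The other 43 log2 fold changes in these libraries started from -0.17 for *Psmd14*, and the median over the 44 was 0.02. These 4 libraries were chosen after seeing the data.

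**Figure D2:**
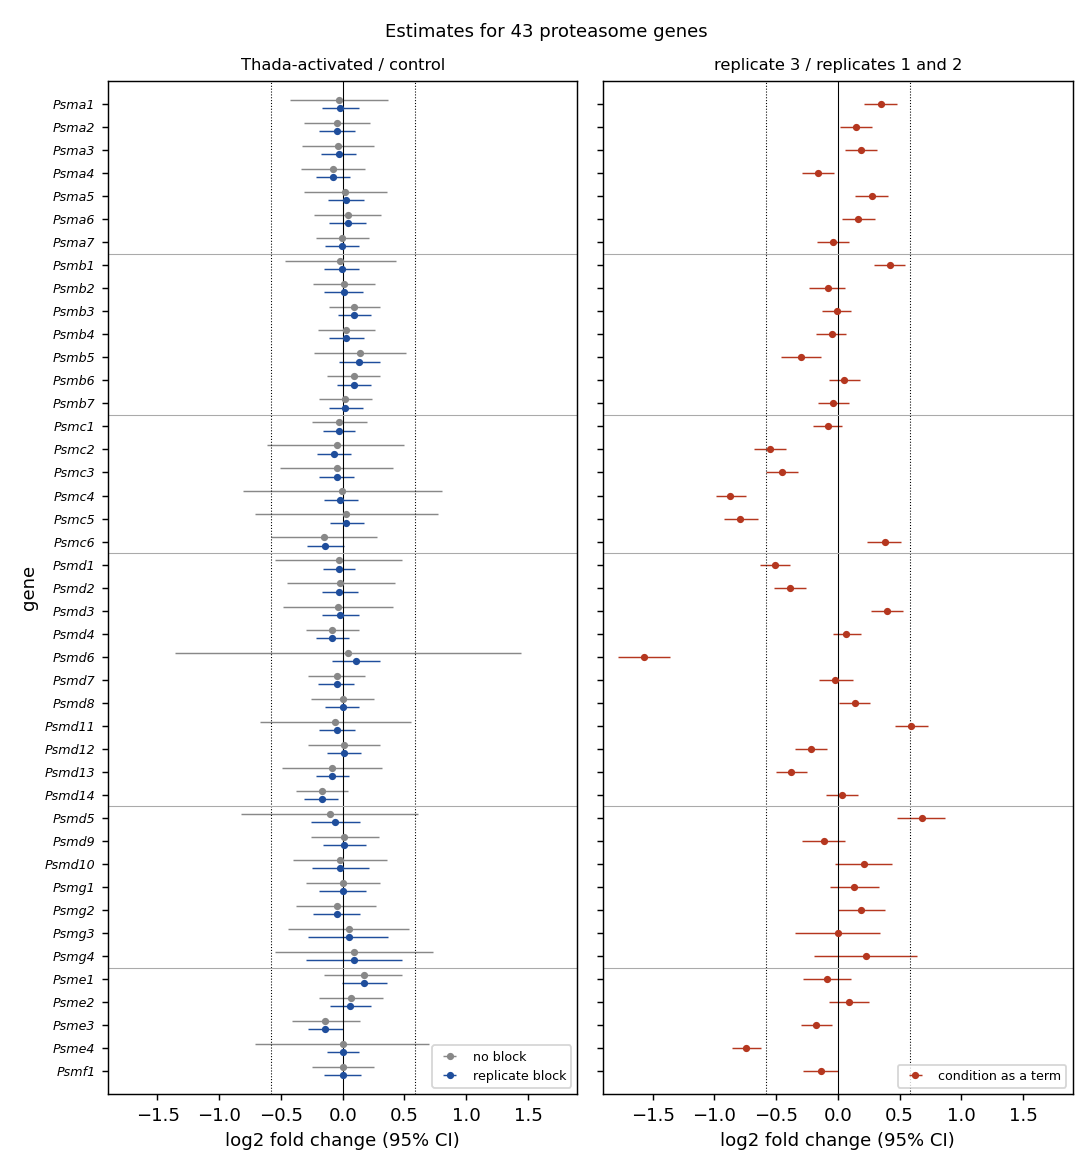
Log2 fold changes with 95% confidence intervals for activated over control cells, without and with the replicate block, and for replicate 3 over replicates 1 and 2, with dotted lines at a 1.5-fold change. All estimates between conditions lie from -0.17 to 0.17, while those for replicate 3 run from -1.57 for *Psmd6* to 0.68 for *Psmd5*.

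The larger differences among proteasome genes were those between replicate 3 and the other replicates. Of 44 proteasome genes, 24 (54.5%) passed an adjusted p of 0.05 in edgeR, a share below the 68.6% of all tested genes, so passing was not more common among them. In replicate 3, 11 were higher (25%) and 13 lower (29.5%), beside 34.3% higher and 34.4% lower of all tested genes. The median absolute log2 fold change was 0.18, beside 0.38 over all tested genes. With the fold limit of 1.5 there were 2 higher and 4 lower, against 15.7% higher and 15.4% lower of all tested genes. All 24 kept their sign in 14 alternative fits, which include 2 other scalings of the libraries. In 28 of 44 proteasome genes both libraries of replicate 3 lay outside the range of the other 4, against 71.8% of all tested genes.

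**Figure D3:**
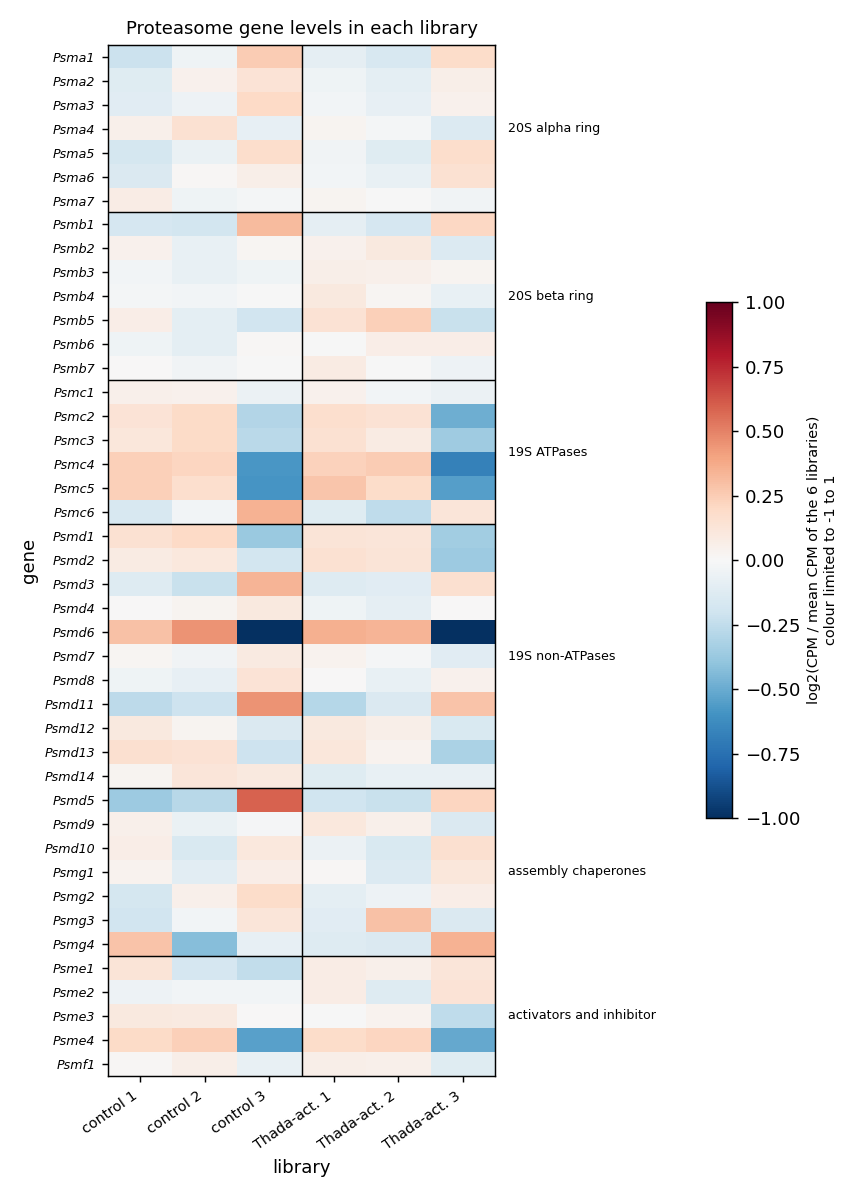
Heat map of log2 CPM over the gene's mean in the 6 libraries for 43 proteasome genes, ordered by subcomplex, with one column per library. The columns of control 3 and activated 3 differ from the other 4 in the ATPases, *Psmd6*, *Psmd5*, *Psmd11* and *Psme4*.

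Of the 6 cap ATPases, which unfold the substrate, 4 passed as lower in replicate 3 and 1 as higher. This and the counts of the other subcomplexes below stand beside 34.4% lower and 34.3% higher of all tested genes. The differences from those shares were not tested. *Psmc4* (chr7:28041707-28050101, minus strand, GRCm38) was at 147, 145 and 83.1 CPM in control and 146, 149 and 78 CPM in activated libraries. *Psmc5* (chr11:106256154-106263120, plus strand) was at 96.8, 92.4 and 54.7 CPM in control and 99.8, 93.6 and 56.3 CPM in activated libraries. In each of these genes the 4 libraries of replicates 1 and 2 were close together and both libraries of replicate 3 far below them. The log2 fold changes in edgeR were -0.87 (SE 0.06, adjusted p = 1.26e-08) for *Psmc4* and -0.79 (SE 0.06, adjusted p = 5.87e-08) for *Psmc5*. *Psmc2*, at 131, 136 and 97.3 CPM in control and 134, 132 and 85.1 CPM in activated libraries, was also lower (-0.55, adjusted p = 1.92e-06 in edgeR), as was *Psmc3* (-0.45), whose exons overlap *Slc39a13*. *Psmc6*, in the same ring, was higher, at 91.3, 100 and 130 CPM in control and 93.6, 85.5 and 111 CPM in activated libraries (0.38, adjusted p = 0.000108 in edgeR). The ATPase genes therefore did not move together, although their products form a ring of fixed composition.

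Among the other cap subunits 5 passed as lower and 3 as higher. *Psmd6* (chr14:14112174-14120984, minus strand), a subunit of the lid, was at 90.7, 101 and 27 CPM in control and 94.4, 93.3 and 36.9 CPM in activated libraries. Replicate 3 was thus at 28.2% of the mean of replicates 1 and 2 in control cells and at 39.3% in activated cells. The log2 fold change of -1.57 (SE 0.10, adjusted p = 1.9e-08 in edgeR), 2.97-fold lower, was the lowest of the 44. Per length, *Psmd6* was at 123 and 124% of the median of the cap subunits in control 1 and 2 and at 37.1% in control 3. In activated cells the same shares were 124 and 130% in libraries 1 and 2 and 58.1% in library 3. *Psmd11* (chr11:80428615-80473248, plus strand), a lid subunit that clamps the cap to the core, was at 79.7, 82.5 and 130 CPM in control and 78.3, 86.2 and 116 CPM in activated libraries. Its log2 fold change of 0.59 (SE 0.06, adjusted p = 1.3e-06 in edgeR) was just past the fold limit, whose log2 is 0.58. *Psmd11* was no longer past that limit without control 1 (0.56), control 2 (0.58), control 3 (0.50) or activated 1 (0.57), or without the filter on low counts (0.58).

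The scaffolds of the cap were lower in replicate 3 by less than 1.5-fold. *Psmd1* had a log2 fold change of -0.51 (adjusted p = 1.71e-06 in edgeR). Its exons overlap *Htr2b* on the opposite strand and *Gm21972* on the same strand. *Psmd2* was at 251, 255 and 209 CPM in control and 264, 259 and 184 CPM in activated libraries, with a log2 fold change of -0.39. *Psmd3*, a lid subunit, was higher, at 104, 97.6 and 144 CPM in control and 104, 105 and 127 CPM in activated libraries (0.40, adjusted p = 5.36e-05 in edgeR). Of the rest of the cap, *Psmd13* (-0.38) and *Psmd12* (-0.22) passed as lower and *Psmd8* (0.14) as higher, the last of them with an adjusted p of 0.0493 in edgeR. Across the 17 cap subunits 4 passed as higher and 9 as lower, with a median of -0.22. Of all tested genes 34.3% passed as higher and 34.4% as lower, and the difference was not tested.

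In the core no subunit of the 14 was past the fold limit in edgeR. Of the 14, 8 passed the adjusted p, 6 as higher and 2 as lower, beside 68.6% of all tested genes. The median log2 fold change was 0.02, and the median absolute value was 0.16, beside 0.38 over all tested genes. The difference from all genes was not tested. In the α ring 5 of 7 passed as higher and 1 as lower, from -0.16 for *Psma4* to 0.35 for *Psma1*. Of all tested genes 34.3% passed as higher and 34.4% as lower. *Psma2*, *Psma3*, *Psma4* and *Psma6* did not pass in every alternative fit. *Psma1* was at 81.1, 91.4 and 112 CPM in control and 88.3, 84.1 and 107 CPM in activated libraries. In the β ring *Psmb1* passed as higher, at 124, 123 and 174 CPM in control and 131, 124 and 161 CPM in activated libraries (0.42, adjusted p = 1.5e-05 in edgeR). *Psmb5* (chr14:54614119-54618022, minus strand) passed as lower, with a log2 fold change of -0.30 (adjusted p = 0.00237 in edgeR). The summed level of the α ring was 534, 569 and 617 CPM in control and 558, 538 and 596 CPM in activated libraries. That of the ATPases was 693, 705 and 560 CPM in control and 701, 678 and 521 CPM in activated libraries. In both conditions replicate 3 was thus the highest library for the α ring and the lowest for the ATPases.

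Of the chaperones, 1 of 7 passed. *Psmd5* (chr2:34849734-34874968, minus strand), which holds the ATPases *Psmc1* and *Psmc2* before the cap closes, was at 59.8, 63.4 and 116 CPM in control and 67, 66.1 and 89.4 CPM in activated libraries. Both libraries of replicate 3 were above the other 4, and control 3 was the highest. The log2 fold change was 0.68 (SE 0.09, adjusted p = 2.03e-05 in edgeR), 1.60-fold, and was 0.43 and under the fold limit without control 3. The lowest estimate among chaperones was that of *Psmd9* (-0.11). *Psmg1*, *Psmg2*, *Psmg3* and *Psmg4*, which build the α ring, did not pass. *Psmg1* was at 17.5, 15.9 and 17.9 CPM in control and 17.3, 15.6 and 18.5 CPM in activated libraries.

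Of the activators, *Psme4* (chr11:30771726-30880361, plus strand) was at 228, 236 and 137 CPM in control and 227, 232 and 140 CPM in activated libraries. Replicate 3 was at 59.1% of the mean of replicates 1 and 2 in control and at 60.9% in activated cells, with a log2 fold change of -0.74 (SE 0.06, adjusted p = 3.52e-08 in edgeR). *Psme3* was at 157, 156 and 147 CPM in control and 146, 150 and 123 CPM in activated libraries (-0.18), and passed as lower. *Psme2* had the highest estimate of the group (0.09) and did not pass. *Psmc3ip*, the gene that only shares the name, had log2 fold changes of 0.11 between conditions and -0.12 for replicate 3, and neither passed.

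**Figure D4:**
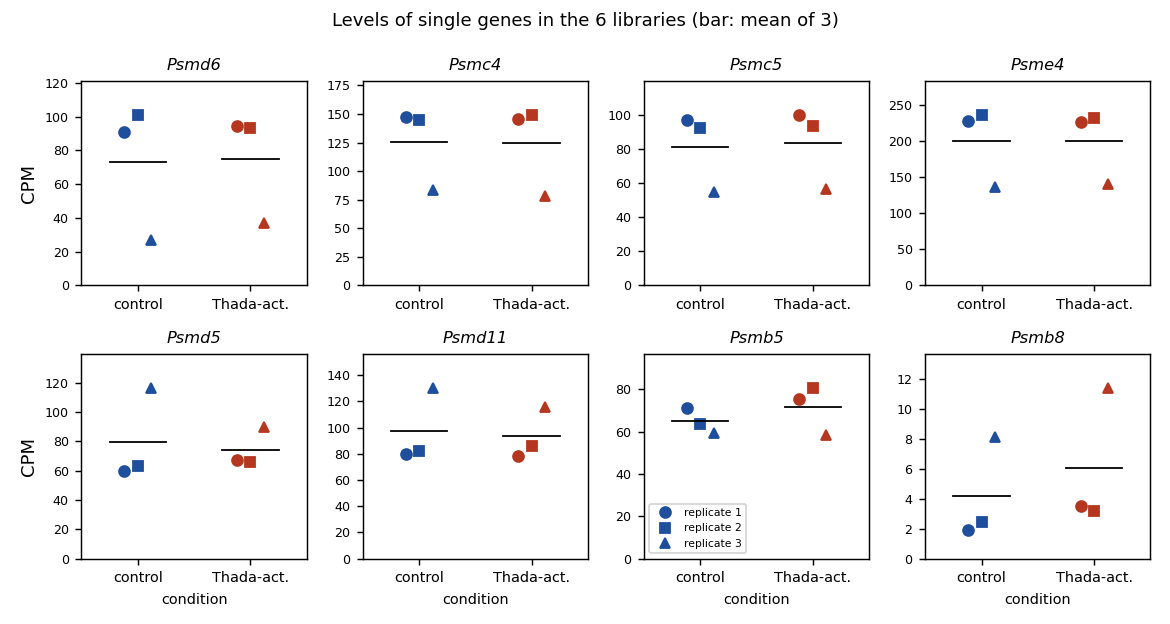
CPM of 8 genes in each of the 3 control and 3 activated libraries, each point a library and each bar the mean of 3. In *Psmd6*, *Psmc4*, *Psmc5* and *Psme4* both libraries of replicate 3 lie below the other 4, and in *Psmd5*, *Psmd11* and *Psmb8* above them.

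A further test asked whether the condition effect differed between replicate 3 and replicates 1 and 2. In edgeR 2 of 44 proteasome genes passed, against 871 of 12516 tested genes (6.96%), so the count is no result about the proteasome genes as a group. Replicate 3 has 1 control and 1 activated library, so the standard errors and p-values rest on the spread of replicates 1 and 2 and assume that replicate 3 varies like them. *Psmd5* had log2 ratios of activated over control of 0.16, 0.06 and -0.38 in pairs 1, 2 and 3, and a difference of -0.49 (SE 0.10, adjusted p = 0.000776 in edgeR). *Psmd6* had ratios of 0.06, -0.11 and 0.45, and a difference of 0.48 (SE 0.12, adjusted p = 0.00798 in edgeR). In both genes the activated library of replicate 3 was less far from replicates 1 and 2 than the control library was. In the same fit 10 of 17 β-cell markers passed, 7 with a positive and 3 with a negative difference, among them *Abcc8* (0.52) and *Ins2* (-0.40). *Thada* passed too (0.52, adjusted p = 0.00935 in edgeR). Their part in the differences of *Psmd5* and *Psmd6* was not tested. The fit leaves 2 residual degrees of freedom, and 0 proteasome genes passed with limma or among the 36 that DESeq2 gave an adjusted p, with adjusted p of 0.0778 and 0.173 for *Psmd5* and *Psmd6* in DESeq2. Over 9 alternatives the adjusted p ran from 2.71e-06 to 0.0778 for *Psmd5* and from 7.39e-05 to 0.173 for *Psmd6*. The count was 7 without control 1, 5 without control 2 and 1 without activated 2, where *Psmd6* had an adjusted p of 0.0582 in edgeR. Over all tested genes it was 1757 (13.8%) without control 1, 1455 (11.4%) without control 2, 345 (2.71%) without activated 1 and 316 (2.48%) without activated 2. The share among proteasome genes was thus above that of all genes in some of these fits and below it in others, and the difference was not tested. It was 113 of 5236 genes given an adjusted p by DESeq2 (2.16%), and 52 and 149 with limma on log2(FPKM + 1) and log2(FPKM + 0.1).

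The inducible subunits, which replace the proteolytic ones in the immunoproteasome, were low but higher in replicate 3. *Psmb8*, which takes the place of *Psmb5*, was at 1.93, 2.44 and 8.15 CPM in control and 3.55, 3.22 and 11.4 CPM in activated libraries. The log2 fold change for replicate 3 was 1.81 (SE 0.15, adjusted p = 7.33e-08 in edgeR), 3.51-fold. *Psmb9*, which takes the place of *Psmb6*, was at 1.17, 0.989 and 2.12 CPM in control and 0.957, 1.38 and 3.19 CPM in activated libraries (1.23, adjusted p = 0.00047 in edgeR). Its exons overlap those of *Tap1* on the opposite strand, so reads of the latter may be counted in part. *Psmb10*, which takes the place of *Psmb7*, was at 4.22, 3.78 and 7.52 CPM in control and 3.55, 4.49 and 7.62 CPM in activated libraries (0.92, adjusted p = 6.11e-05 in edgeR). Per length, *Psmb8* was at 1.81, 2.56 and 9.14% of *Psmb5* in control and 3.14, 2.68 and 13.2% in activated libraries. *Psmb9* reached at most 5.49% of *Psmb6*, and *Psmb10* at most 5.94% of *Psmb7*, both in activated 3. Per length each standard subunit was thus above its inducible counterpart in all 6 libraries. Between conditions none of the 3 passed in edgeR, where 0 of 3 were at an unadjusted p under 0.05 without the block and 1 of 3 with it, *Psmb8* (log2 fold change 0.55, adjusted p = 0.265).

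Genes of interferon response and antigen processing were read beside them. Of 11 tested, 7 were higher and 1 lower in replicate 3 in edgeR, and 6 were past the fold limit, all higher, beside 34.3% higher of all tested genes and 15.7% higher past the fold limit. These were *Tap1* (1.07) and *Tapbp* (0.92) of the peptide loading complex, *B2m* (1.03), *H2-D1* (0.79) and *H2-K1* (0.66) of the class I molecule, and the transcription factor *Irf1* (0.60). Their list summed to 1050, 1030 and 1730 CPM in control and 1130, 1110 and 1730 CPM in activated libraries. *Psme1* and *Psme2*, which belong to the same list, did not pass for replicate 3.

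Other genes that work with the proteasome varied in both directions in replicate 3. Of 17 partners without a *Psm* name, 3 passed as higher and 9 as lower in edgeR. Past the fold limit were *Akirin2* (0.65), which takes proteasomes into the nucleus, *Ecpas* (-0.66), a scaffold that binds the cap, and *Ubqln2* (-0.64), a shuttle for ubiquitinated proteins. Of 11 tested genes of the pathway of NRF1, the transcription factor that raises proteasome genes when proteasomes are inhibited, 3 passed as higher and 4 as lower. *Nfe2l1*, which encodes NRF1, was higher (0.71), and *Syvn1* (-0.91), *Vcp* (-0.76) and *Mafg* (-0.72) were lower, while *Nfe2l3* was not tested. Of 17 genes of ubiquitin supply and of the p97 unfoldase, 3 passed as higher and 9 as lower, and those past the fold limit were *Rps27a* (0.89) and *Vcp*. That list also holds *Psmd4*, which is one of the proteasome genes and did not pass. Each of these shares stands beside 34.3% higher and 34.4% lower of all tested genes.

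Between conditions 0 genes of these 4 lists passed in edgeR, without or with the block. Without the block 0 of them were at an unadjusted p under 0.05, and with it 1 of 17 partners, 2 of 11 genes of the NRF1 pathway, 2 of 17 of ubiquitin supply and 3 of 11 of antigen processing were, beside 10.4% of all tested genes. The estimates without the block ran from -0.18 for *Usp14* to 0.07 for *Pomp* among partners and from -0.23 for *Ngly1* to 0.14 for *Keap1* and *Fbxw7* in the NRF1 pathway. They ran from -0.13 for *Ubxn4* and *Ufd1* to 0.14 for *Ubxn6* in ubiquitin supply and from -0.25 for *B2m* to 0.25 for *Tap2* in antigen processing. Among the β-cell markers *Ucn3* passed with the block and not without it (0.52, adjusted p = 0.0337 in edgeR).

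The promoters were searched for motifs that are known from proteasome and stress genes. RefSeq windows of 250 bases before to 50 after the start (GRCm38.p6) were available for 38 of the 45 genes, in 41 entries, and for 32851 entries in all. *Psmb1*, *Psmb2*, *Psmb7*, *Psmc3*, *Psmd3*, *Psmd7* and *Psmg2* had no entry. The core of the antioxidant response element, TGACNNNGC on either strand, which NRF1 and NRF2 bind, was found in 14.6% of the entries of proteasome genes and in 12.4% of all entries. It lay before the start in *Psmb5*, *Psmb6*, *Psmc6*, *Psmd9* and *Psmd12*, and after it in *Psme4*. The windows of those 5 genes are shown because they include a pair of the proteolytic subunits. Each is written 5′ to 3′ on the transcribed strand with the motif in capitals, and in *Psmc6* and *Psmd12* the capitals are its reverse complement.
Psmb5 (chr14:54618023-54618052, minus strand): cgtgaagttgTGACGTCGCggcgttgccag
Psmb6 (chr11:70525327-70525356, plus strand): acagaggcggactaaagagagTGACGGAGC
Psmc6 (chr14:45329587-45329616, plus strand): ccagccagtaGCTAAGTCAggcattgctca
Psmd9 (chr5:123228149-123228178, plus strand): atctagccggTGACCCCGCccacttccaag
Psmd12 (chr11:107479278-107479307, plus strand): tctGCTGTGTCAcatttgcccccctcagac
A match is a description of the letters and not a binding site. For replicate 3, *Psmc6* was higher and *Psmb5* and *Psmd12* lower, so genes with the motif did not share a direction.

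The CCAAT box, on either strand, was in 34.1% of the entries of proteasome genes and in 37.4% of all entries. By subcomplex it was in 5 of 7 genes of the α ring, 2 of 5 of the β ring, 2 of 5 ATPases, 2 of 9 other cap subunits, 1 of 6 chaperones and 1 of 5 activators and inhibitor. Of the 5 genes of the α ring that hold the box, windows are shown for the 4 that passed as higher in replicate 3. Their shared direction therefore follows from this choice. The windows are written as above, with the box in capitals.
Psma1 (chr7:114276197-114276226, minus strand): cggagcttcctgCCAATcccacgttctcag
Psma2 (chr13:14613176-14613205, plus strand): ggtgactctcctCCAATcagagcaaagaag
Psma3 (chr12:70974472-70974501, plus strand): accttagctcttCCAATaccagtttcagtt
Psma6 (chr12:55384181-55384210, plus strand): gaccactaggtgCCAATggaattcctgagg
These 4 genes of the α ring passed as higher in replicate 3, with log2 fold changes of 0.35, 0.15, 0.19 and 0.16. *Psma5*, an α subunit without the box in this window, was also higher (0.28), and *Psma7*, which holds it, did not pass. *Psmc2* (-0.55) and *Psme3* (-0.18), which hold the box, passed as lower, so genes with the box did not share a direction. Under alternative fits *Psma2*, *Psma3* and *Psma6* did not pass in all, while *Psma1* did. The heat shock element, written GAANNTTC, was in 4.88% of the entries of proteasome genes, those of *Psmb5* and *Psmf1*, and in 7.86% of all entries. Of the 6 genes past the fold limit for replicate 3, *Psme4* held the antioxidant motif and none of the 6 held a CCAAT box or a heat shock element.

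The 45 genes lie on 16 chromosomes in GENCODE M21, with 9 on chromosome 11, so they form no single cluster. Of the 6 genes past the fold limit, *Psmc5*, *Psmd11* and *Psme4* lie on that chromosome. In 8 of the 45 the exons overlap another protein-coding gene, among them *Psma4*, *Psmb7*, *Psmd1*, *Psmd13* and *Psme1*, and the counts of these genes are uncertain to that extent. The KEGG proteasome pathway holds 37 of the 45, and 42 carry a proteasome component term of the Gene Ontology. The median transcript length of the tested proteasome genes was 1490.5 bases, beside 3205 over all tested genes, and the median GC content was 49.7%, beside 50.2%. Across the 44 genes the log2 fold change for replicate 3 had r = -0.04 with log length and r = -0.14 with GC content, as a description, since genes of the same libraries are not independent.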

How the data were processed

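The authors deposited an estimated count and an FPKM value for each of 16640 genes in each library. The submitters' processing notes name Bowtie2, RSEM, DESeq2 and GRCm38, without versions or roles. The authors' columns of fold change, p and q were not used. Of the deposited estimated counts, 91.1 to 91.9% per library are whole numbers, and the rest were rounded. Deposited FPKM values were used as they are. Where a line was broken inside a text cell, its first part was kept and the text in its tail was dropped.

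Genes were filtered with filterByExpr, scaled by TMM and tested in edgeR 4.0.16 (R 4.3.3) by quasi-likelihood with robust estimation, with limma 3.58.1 and DESeq2 1.42.0 as alternatives. Adjusted p-values are Benjamini-Hochberg over all tested genes, and tests are two-sided. A gene was called at an adjusted p under 0.05 and a fold change over 1.5, and passed at an adjusted p under 0.05. The replicate 3 coefficient was fitted beside the condition, and their product in a further fit.

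The members and lists were chosen with earlier results of these data known. Genes are named by a rule: *Thada*, the called members, the extremes of each subcomplex, the proteolytic and inducible subunits, and the called or extreme genes of the other lists. Members whose groups do not overlap, and others named for contrast, were added after their values were seen. The result of 1 marker is not reported here.

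Pairing by number was checked with the correlation across genes of each library's deviation from its group mean. Control and activated libraries of the same number had r of 0.746, 0.74 and 0.895. Crossing numbers 1 and 2 gave 0.77 and 0.769, and crossing with number 3 gave -0.829 to -0.817, so the numbers 1 and 2 are not told apart. Within a condition no library was a copy of another, with a chi-square per degree of freedom of 1.81 to 127. Libraries of different conditions were not compared in this way.

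Positions are from GENCODE M21 on GRCm38, and promoter windows from RefSeq on GRCm38.p6. The floor of a count of 0 is 3 counts. Intervals and floors cover counting error and the spread of these libraries, and reads without molecular identifiers are not independent molecules.

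Alternatives were DESeq2 size factors, library sizes without the 20 genes with the most counts, the DESeq2 Wald test, no filter or at least 10 counts in every library, limma on log2(FPKM + 1) and log2(FPKM + 0.1), other thresholds, the replicate block alone or with another test or scaling, no condition term, each condition alone, each library or pair left out, and counts per kb.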

Additional observations from a re-analysis of the deposited data

Results flagged for a closer look

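For *Psmd6* the condition effect in replicate 3 differed from that in replicates 1 and 2 by 0.48 in log2 (SE 0.12, adjusted p = 0.00798 for the difference itself in edgeR). For *Psmd5* it differed by -0.49 (SE 0.10, adjusted p = 0.000776 in the same edgeR test). In replicate 3 the effect is that of 1 activated over 1 control library, so the spread comes from replicates 1 and 2 alone. Both were singled out because the test of the difference between replicates passed for them. Neither passed with DESeq2 or limma, and *Psmd6* did not pass in edgeR without activated 2. Over 9 alternative fits the difference of *Psmd6* ran from 0.40 to 0.55 with adjusted p from 7.39e-05 to 0.173, and that of *Psmd5* from -0.53 to -0.45 with adjusted p from 2.71e-06 to 0.0778.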

How the results depend on the processing

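The count of called genes between conditions over all genes, 0 in edgeR, was 5 with the DESeq2 Wald test, 19 with the replicate block, 20 with the block and DESeq2, 22 with the block and library sizes without the 20 top genes, and 68 in replicates 1 and 2 alone, which were chosen after seeing the data. The cause was not tested. The replicate block thus moved that count from 0 to 19 and the call of *Thada*, and changed no call of a proteasome gene. The count of proteasome genes called between conditions was 0 under every alternative run, also without each library or pair. For replicate 3 it was 6, and 5 to 6 with each library left out. It was 24 with no fold limit, since that alternative asks less. Of the 24, 18 passed in all 14 alternative fits, and *Psmd6*, *Psmc4*, *Psmc5* and *Psme4* were called in each. The count of proteasome genes whose condition effect differed in replicate 3, 2 in edgeR, was 0 with DESeq2, 0 with limma on log2(FPKM + 1), 0 with limma on log2(FPKM + 0.1) and 1 to 7 with each library of replicates 1 and 2 left out. All alternatives of that test were added after seeing the data, and the cause was not tested. The range of ring levels per length was 3.57-fold in place of 2.73-fold with counts per kb, by the construction of another length. Of the values of single genes, 101 kept their direction and side of the threshold, 13 were no longer past it, some by the fold limit alone, 5 were newly past it and 0 turned direction. Scaling moved the median log2 fold change of all genes by at most 0.04.

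At 17166511 to 17727004 counts a library, counting error weighs more on *Psmg3* and *Psmg4*, at 3.9 to 7.53 CPM, than on the cap and core. With 3 libraries a condition that the labels do not tie to separate cultures, the tests speak only to these libraries. Where a gene did not pass, a difference of any size within its confidence interval remains compatible with these libraries. Transcript levels say nothing of assembled proteasomes.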
